A study of Mus musculus with 6 samples.

Results

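The genes described here are the 3 PIM kinases, Pim1, Pim2 and Pim3, and 6 phosphatases that act on cytokine and immune receptor signalling, Ptpn1, Ptpn2, Ptpn6, Ptpn11, Ptprc and Inpp5d. Their probes were those whose annotated gene name equalled one of these symbols, which gave 12 of 55681 probes on the array and 9 of 23808 named genes. Pim1, Pim2, Pim3, Ptpn6, Ptpn11, Ptprc and Inpp5d had 1 probe each, Ptpn1 had 2 and Ptpn2 had 3. All 12 probes were well above background and none was saturated on any array. RAW264.7 is an established, transformed mouse macrophage line. Cells of 1 group received 50 µg/ml of AEPS, a root polysaccharide of Actinidia eriantha, for 4 h, and the control cells were kept for 4 h in DMEM without it. Each group had 3 samples, and both shared the same serum-supplemented medium with penicillin and streptomycin. Cy3-labelled cRNA made from total RNA was read on 1-colour Agilent arrays.

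PIM kinases are serine/threonine kinases with little regulation beyond their own abundance: cytokine receptors, JAK kinases and STAT factors induce their transcription, and the kinases then phosphorylate proteins of survival, growth and cell cycle control. The phosphatases act on the same pathways from the other side. Several remove phosphate from tyrosines of receptors, JAK kinases and STAT factors, while Inpp5d encodes SHIP-1, which dephosphorylates the membrane lipid made by phosphoinositide kinases. In macrophages these enzymes are known as brakes, and in some cases as positive regulators, of cytokine and pattern recognition receptor signals.

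In both groups replicates 1 and 2 have the same scanner values and were counted as 1 sample, so the scanner data comprise 2 distinct arrays per group on 2 slides, each slide with 1 AEPS and 1 control array. The authors' deposited value table has 3 distinct columns per group. Its replicate 1 and 2 columns ranked probes as the slide 1 and slide 2 arrays did (Spearman 0.999992 each), and its replicate 3 columns matched no scanner file. Between 55.4% and 58.7% of 59305 non-control spots per array were well above background. Precision is limited by how few arrays there are. Separate cultures are not mentioned in the labels, so p-values reflect only how far these samples vary, possibly for technical reasons alone. All 9 macrophage markers on the array, of 10 listed, were above background on all arrays, with summed levels of 1068 to 1191 times the array's 75th percentile in AEPS and 1199 to 1418 in control. Of the other lists, no epithelial marker of 5, 1 fibroblast marker of 5, 2 B cell markers of 5 and 2 T cell markers of 6 were above background on all arrays, and Cd3g, Ms4a1, Col1a1 and Epcam were among those above it on none. Summed T cell marker levels were 16.6 to 23.0 in AEPS and 26.1 to 31.4 in control, nearly all from Cd4 and Cd3e, and their part in the results was not tested. Of the markers, Fcgr1 on the macrophage list was called lower (log2 change -1.49) and Cd79b on the B cell list higher (2.59). Summed B cell marker levels were 0.889 to 1.13 in AEPS and 0.706 to 0.760 in control.

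The probes that read the genes past the test in the scanner fit, Pim1 and Ptprc, and the probe of Ptpn6, which encodes the phosphatase SHP-1, are shown so that each value can be tied to the sequence that measured it. Each is 60 bases long, printed 5′ to 3′ from the array annotation. The Pim1 probe is annotated to chromosome 17, the Ptprc probe to chromosome 1 and the Ptpn6 probe to chromosome 6. No source used here names the build behind the array annotation, so probe coordinates are not printed. No other probe on the array shared a run of 20 bases on either strand with any of the 12 probes.
Pim1: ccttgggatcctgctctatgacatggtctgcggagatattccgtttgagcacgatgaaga
Ptprc: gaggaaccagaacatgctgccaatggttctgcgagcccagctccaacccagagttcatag
Ptpn6: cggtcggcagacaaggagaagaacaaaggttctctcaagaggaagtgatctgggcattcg

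With AEPS, Pim1 was 9.75-fold higher and Ptprc, the gene of the leukocyte phosphatase CD45, was 1.91-fold higher, and these were the 2 of 9 members past an adjusted p of 0.05 on the scanner arrays without a block. With the slide as a replicate block 7 of 9 passed on the same arrays, all but Ptpn1 and Ptpn11. In that blocked fit 29.8% of 25930 features passed. A fit of group and slide on so few arrays leaves little per-gene spread to estimate. Its SE therefore leans on spread pooled over features. Pim2 and Pim3 also had values above 0 but did not pass without the block. The phosphatases split, with Ptprc, Ptpn2 and Ptpn11 above 0 and Inpp5d, Ptpn6 and Ptpn1 below 0. In the fit without the block 4.17% of 25930 features passed as higher and 2.94% as lower, 7.11% in all. In the authors' table, with 3 columns per group, 8 of 9 members passed, 3 of 3 PIM kinases higher, 3 phosphatases higher (Ptpn2, Ptpn11 and Ptprc) and 2 lower (Ptpn6 and Inpp5d), where 17% of features passed as higher and 16.4% as lower, 33.4% in all. The arrays of the scanner fit are 2 of the 3 per group in the table, so the table is not an independent repeat. The AEPS and control values did not overlap for 9 of 9 members in the table, where 48% of features showed no overlap, and for 8 of 9 on the scanner arrays, where 63.2% did. Separation of the groups was thus common on these arrays. Values below are levels relative to the 75th percentile of all non-control spots on the same array unless named otherwise, and a level is compared only with the same probe on other arrays. Log2 changes are AEPS minus control, with limma's moderated SE from 2 distinct arrays per group, or from 3 columns per group where the authors' table is named.

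**Figure D1:**
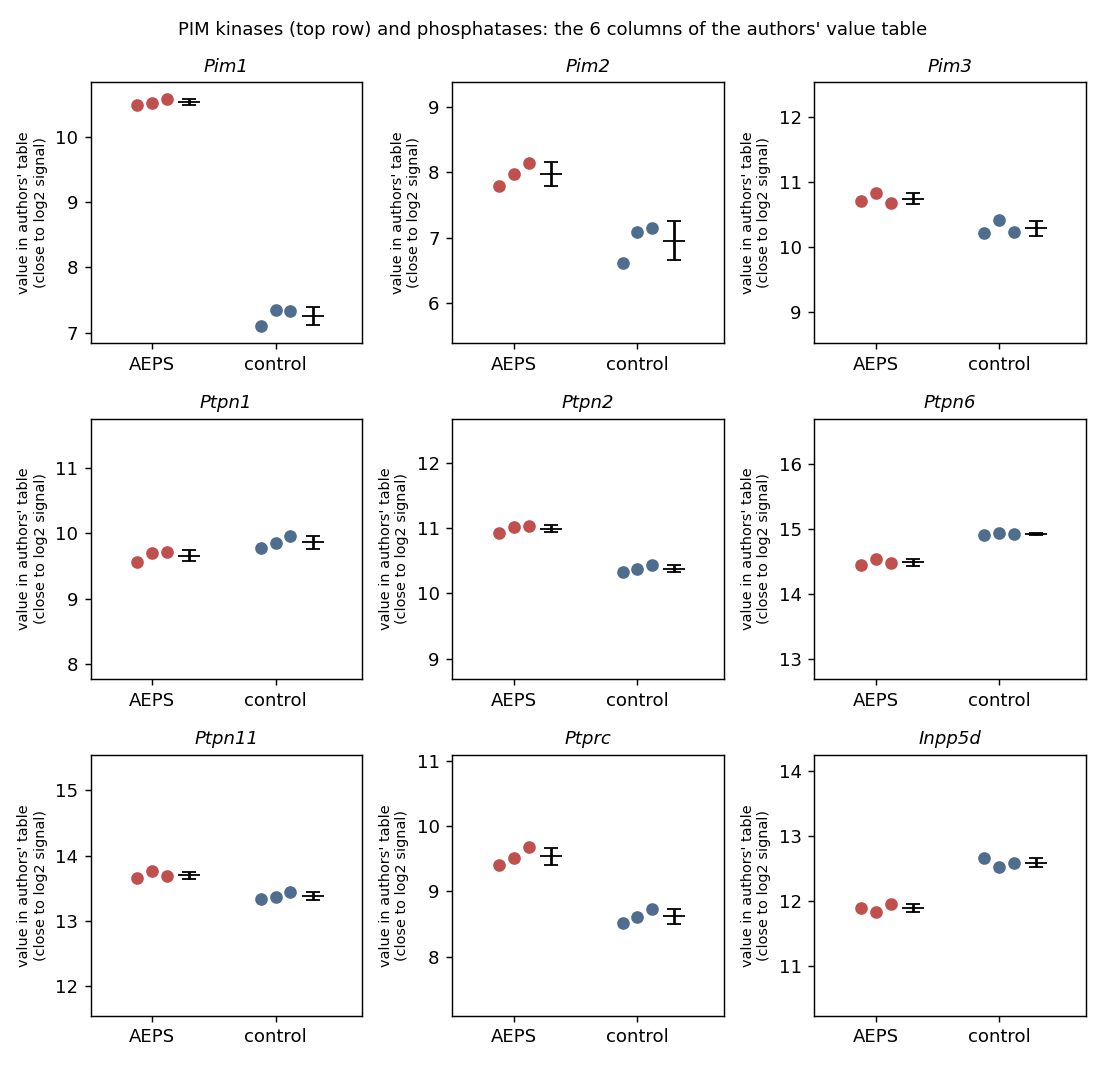
Values of the brightest probe of each member in the 6 columns of the authors' deposited value table, on a near-log2 signal scale; points are the 3 AEPS and 3 control columns, and the bars give mean and SD. Every panel spans the same range, and the AEPS and control columns do not overlap for any of the 9 genes, as for 48% of all features.

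Pim1 encodes the founding PIM kinase, first known as a common site of leukaemia virus insertion in mouse lymphomas. Its level was 3.82 and 4.32 on the AEPS arrays of slides 1 and 2, against 0.404 and 0.431 on the control arrays. Both AEPS arrays lay far above both control arrays. The log2 change was 3.28 ± 0.15 (adjusted p = 0.00950), with 3.24 on slide 1 and 3.33 on slide 2. The authors' table gave Pim1 values of 10.49, 10.53 and 10.58 in the AEPS columns, against 7.10, 7.35 and 7.33 in the control columns. The change there was 3.27 ± 0.09 (adjusted p = 7.14e-05). Without the slide 1 control array the scanner call was lost (log2 change 3.24, adjusted p = 0.0717), as it was without the slide 2 control array (3.33, adjusted p = 0.0627).

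Pim2 encodes a PIM kinase that is abundant in lymphoid and myeloid cells. Its level was 0.606 and 0.639 on the AEPS arrays, against 0.298 and 0.360 on the control arrays. The 2 groups did not overlap. The log2 change was 0.93 ± 0.16, just outside the threshold (adjusted p = 0.0555, and 0.0354 with the slide as a replicate block). For Pim2 the AEPS columns of the authors' table had 7.79, 7.98 and 8.15, against 6.61, 7.09 and 7.15 in the control columns. The first control column was the lowest, and the change of 1.02 ± 0.18 passed (adjusted p = 0.00988).

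Pim3 encodes the third PIM kinase. Its level was 4.46 and 5.34 on the AEPS arrays, against 3.11 and 3.88 on the control arrays. The lower AEPS array was above the higher control array, and on both slides the AEPS array was the higher one. The log2 change of 0.49 ± 0.19 did not pass (adjusted p = 0.178, and 0.0432 with the replicate block). For Pim3 the columns of the authors' table had 10.71, 10.84 and 10.68 with AEPS, against 10.22, 10.42 and 10.23 in control, a change of 0.45 ± 0.09 that passed (adjusted p = 0.0148). It no longer passed there without AEPS replicate 2 (0.41, adjusted p = 0.0571). Whether the changes of the 3 kinases differ from each other was not tested.

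Regions upstream of the annotated starts are shown for Pim1, with the largest change of the 9 genes, and for Pim3. The Pim3 window held the 1 NF-kB consensus match among the 8 members searched, which left out Ptpn2. The regions shown are the 250 bases before the start in RefSeq, build GRCm38.p6, plus strand, Pim1 at chr17:29490535-29490784 and Pim3 at chr15:88861944-88862193. The Pim1 window is the first of 2 listed for that gene. Capitals mark the NF-kB match, which begins 136 bases before the Pim3 start. Lower case carries no mark.
Pim1: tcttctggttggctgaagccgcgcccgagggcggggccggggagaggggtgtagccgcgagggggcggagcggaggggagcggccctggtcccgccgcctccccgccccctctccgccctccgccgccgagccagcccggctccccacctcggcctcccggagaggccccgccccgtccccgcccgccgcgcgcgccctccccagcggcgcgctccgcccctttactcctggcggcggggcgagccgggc
Pim3: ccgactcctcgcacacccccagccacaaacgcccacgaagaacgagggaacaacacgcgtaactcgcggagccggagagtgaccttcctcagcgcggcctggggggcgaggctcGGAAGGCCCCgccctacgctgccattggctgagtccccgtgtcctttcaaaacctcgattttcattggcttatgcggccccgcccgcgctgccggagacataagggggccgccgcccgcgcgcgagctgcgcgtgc
The 2 windows are GC-rich, at 82.4% for Pim1 and 68% for Pim3. Over 10 windows of 8 members, TTCNNNGAA, the core of STAT-binding elements, was found in 0 windows and the same ends 4 bases apart in 1, that of Inpp5d. Across all 32851 windows of this length the shares were 7.02% for TTCNNNGAA, 5.85% for the longer spacing and 7.25% for the NF-kB consensus on both strands. The STAT patterns read the same on both strands. A match is only a description of these letters, and the 250-base windows leave out more distant elements.

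Among the phosphatases, Ptprc encodes CD45, the abundant transmembrane phosphatase of leukocytes that acts on Src-family kinases and on JAK kinases. Its level was 1.82 and 2.06 on the AEPS arrays, against 0.987 and 1.05 on the control arrays. The groups were separate, and the slides gave log2 changes of 0.88 and 0.98. The change of 0.93 ± 0.15 passed narrowly (adjusted p = 0.0480). It passed in none of the fits that left out 1 scanner array, with log2 changes of 0.84 to 1.02 and adjusted p of 0.0896 to 0.236. The columns of the authors' table had 9.41, 9.52 and 9.68 with AEPS, against 8.51, 8.61 and 8.73 in control. That change of 0.92 ± 0.10 passed (adjusted p = 0.00238), and also in each fit without 1 of the 6 columns (adjusted p = 0.00777 to 0.0160).

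Ptpn2 encodes TC-PTP, a phosphatase of JAK kinases and STAT factors found in part in the nucleus. Its brightest probe, A_55_P2080850, had levels of 5.25 and 6.05 on the AEPS arrays, against 3.36 and 3.75 on the control arrays. The second, A_66_P116098, had 1.23 and 1.32 with AEPS, against 0.728 and 0.649 in control. The third, A_52_P403484, was dim at 0.106 and 0.126 with AEPS, against 0.0585 and 0.0731 in control. On all 3 probes both AEPS arrays were above both control arrays. The brightest probe had a log2 change of 0.67 ± 0.16 that did not pass (adjusted p = 0.0817, and 0.0354 with the replicate block). Fitted as separate probes, the second had 0.89 ± 0.14 (adjusted p = 0.0447) and the third 0.82 ± 0.19 (adjusted p = 0.0724), where 5.4% of 30381 probes passed as higher and 3.82% as lower, 9.23% in all. The authors' table gave Ptpn2 values of 10.93, 11.02 and 11.03 in the AEPS columns, against 10.33, 10.37 and 10.44 in the control columns, a change of 0.61 ± 0.07 (adjusted p = 0.00243).

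Ptpn11 encodes SHP-2, a phosphatase that mainly promotes signalling from growth factor and cytokine receptors. Its level was 36.9 and 44.1 on the AEPS arrays, against 29.1 and 34.0 on the control arrays. The AEPS array was higher on both slides, by 0.34 and 0.38 on the log2 scale, and the groups did not overlap. The log2 change was 0.36 ± 0.18 and did not pass without or with the replicate block (adjusted p = 0.243 and 0.0558). For Ptpn11 the authors' table had 13.65, 13.76 and 13.69 with AEPS, against 13.33, 13.37 and 13.44 in control. That change of 0.32 ± 0.07 passed (adjusted p = 0.0195), but not without AEPS replicate 2 (adjusted p = 0.0782), AEPS replicate 3 (0.0637), control replicate 1 (0.0545) or control replicate 2 (0.0720).

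Inpp5d encodes SHIP-1, the lipid phosphatase of blood cells that opposes phosphoinositide kinase signals. Its level was 10.4 and 10.9 on the AEPS arrays, against 18.4 and 18.1 on the control arrays. Both AEPS arrays were clearly lower, and a lower signal in bulk RNA does not separate fewer expressing cells from less RNA per cell. The log2 change of -0.78 ± 0.13 lay just outside the threshold (adjusted p = 0.0521, and 0.0346 with the replicate block). In the authors' table the columns had 11.90, 11.83 and 11.96 with AEPS, against 12.66, 12.53 and 12.59 in control, a change of -0.70 ± 0.07 that passed (adjusted p = 0.00194).

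Ptpn6 encodes SHP-1, the phosphatase recruited by inhibitory receptors of blood cells. Its level was 64.9 and 77.0 on the AEPS arrays, against 92.5 and 108 on the control arrays. The groups were separate, with log2 changes of -0.51 and -0.49 on the slides. The change of -0.50 ± 0.17 did not pass (adjusted p = 0.146, and 0.0407 with the replicate block). For Ptpn6 the authors' table had 14.44, 14.54 and 14.47 with AEPS, against 14.90, 14.94 and 14.92 in control. That change of -0.44 ± 0.06 passed (adjusted p = 0.00549).

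Lower values of Inpp5d and Ptpn6 are lower relative to the rest of the array. Before scaling, the Ptpn6 probe had signals of 37290 and 37560 on the AEPS arrays, against 37080 and 31050 on the control arrays. The Inpp5d probe had unscaled signals of 5960 and 5304 with AEPS, against 7378 and 5196 in control. The 75th percentile itself was higher on the AEPS arrays, by 0.52 on slide 1 and 0.77 on slide 2 on the log2 scale. With scaling to spike-in probes in place of the percentile, the median log2 change of all features was 0.47, against -0.19 by the 75th percentile. On that scale Inpp5d had -0.12 (adjusted p = 0.732), Ptpn6 turned to 0.16 (adjusted p = 0.531) and Ptpn1 to 0.51 (adjusted p = 0.0982), none of them past the test. The other members moved up with the median, to 1.59 for Pim2, 1.149 for Pim3, 1.33 for Ptpn2, 1.02 for Ptpn11, 1.59 for Ptprc and 3.94 for Pim1, all past the test. Of all features 22.7% passed as higher on that scale and 0.737% as lower, 23.4% in all.

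Ptpn1 encodes PTP1B, a phosphatase anchored in the endoplasmic reticulum that acts on the insulin receptor and on JAK kinases. Its brighter probe, A_52_P516021, had levels of 2.01 and 2.35 on the AEPS arrays, against 2.26 and 2.56 on the control arrays. The groups overlapped, and the log2 change was -0.14 ± 0.16 (adjusted p = 0.576). In the authors' table the columns had 9.56, 9.70 and 9.72 with AEPS, against 9.77, 9.85 and 9.96 in control, a change of -0.20 ± 0.09 (adjusted p = 0.134, and 0.0384 with the replicate block). The dimmer probe, A_55_P2097111, had levels of 0.460 and 0.188 on the AEPS arrays, against 0.213 and 0.248 on the control arrays. On that probe the slide 1 AEPS array was above both control arrays and the slide 2 AEPS array below both, with log2 changes of 1.11 and -0.40. The table showed the same split, with 7.37, 6.35 and 6.32 in the AEPS columns, against 6.09, 6.57 and 6.57 in the control columns. With the mean of both probes the log2 change of Ptpn1 was 0.11 ± 0.24 (adjusted p = 0.783), so its sign differed with the probe rule, and the positive value rests on the slide 1 AEPS array.

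**Figure D2:**
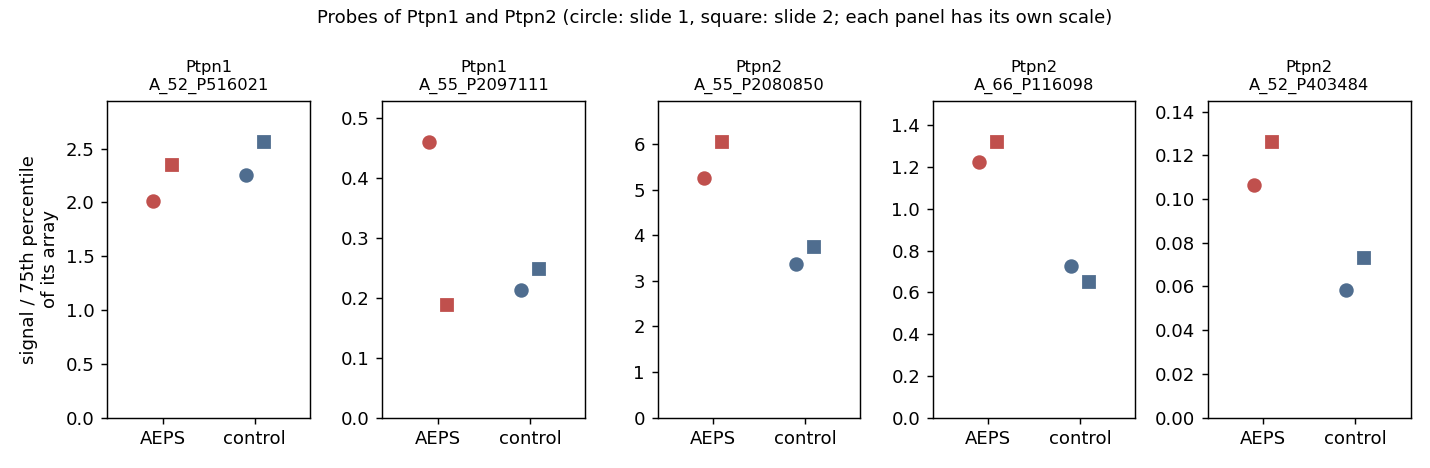
Levels of the 2 Ptpn1 probes and the 3 Ptpn2 probes on the 4 distinct scanner arrays, as signal divided by the array's 75th percentile; circles are slide 1, squares slide 2, and each panel has its own scale from 0. The 3 Ptpn2 probes are higher on both AEPS arrays, while the dimmer Ptpn1 probe is high on the slide 1 AEPS array alone.

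Set beside each other, the PIM kinases had a median log2 change of 0.93, with a range of 0.49 to 3.28. The phosphatases had a median of 0.11, with a range of -0.78 to 0.93. On the scanner arrays 1 of 3 PIM kinases and 1 of 6 phosphatases passed as higher and 0 of either class as lower by limma. The shares of all features were 4.17% higher and 2.94% lower. At an unadjusted p under 0.05 there were 2 higher PIM kinases, 2 higher phosphatases and 2 lower phosphatases. At that unadjusted threshold 14.4% of features were higher and 18.2% lower, 32.6% in all. With the replicate block 3 PIM kinases passed as higher, 2 phosphatases as higher and 2 as lower, where 13% of features passed as higher and 16.8% as lower, 29.8% in all. With the replicate block the authors' table called all 9 members, 3 PIM kinases and 3 phosphatases as higher and 3 phosphatases as lower, where 23.5% of features passed as higher and 26.3% as lower, 49.8% in all. The difference between the class medians was 0.82 on the log2 scale, with 0.94 on slide 1 and 0.70 on slide 2, and 0.50 with normexp background correction. In the authors' table it was 0.96, with 1.13, 0.77 and 0.995 for the same-numbered pairs of columns. The median of 3 kinases is the value of Pim2 alone, so the class difference rests on that gene and on the middle of the 6 phosphatases, and it was not tested. The highest phosphatase, Ptprc, and the middle kinase, Pim2, had almost the same change, while Pim1 had by far the largest change of the 9 genes.

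**Figure D3:**
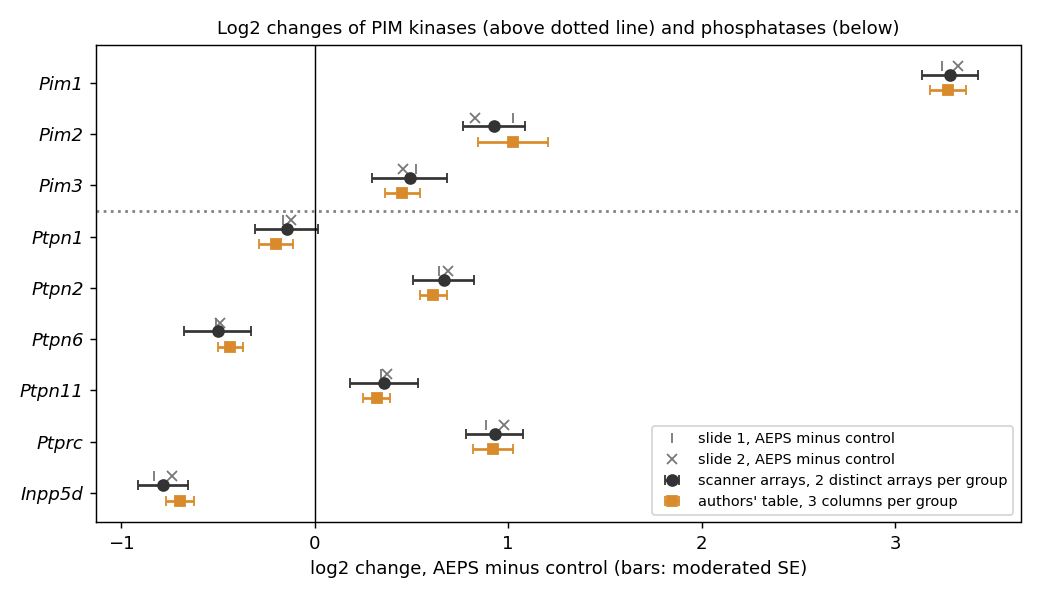
Log2 change, AEPS minus control, of each PIM kinase (above the dotted line) and phosphatase (below it), from the scanner arrays (circles) and the authors' table (squares), with bars of 1 moderated SE; ticks and crosses give the change within slide 1 and slide 2. Pim1 lies near 3.3 in both sources, and the slide and group changes of the other members lie between -0.83 and 1.02.

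Among genes that act upstream of the PIM kinases, Stat5a and Jak2 rose. In the JAK-STAT list 2 of 9 tested genes passed as higher and 0 as lower (3 and 0 at an unadjusted p under 0.05), with a median log2 change of 0.23. Of all features 4.17% passed as higher and 2.94% as lower, and 14.4% and 18.2% at the unadjusted threshold. Stat5a, a factor that carries signals of interleukins and colony-stimulating factors to the nucleus, rose by 2.27 ± 0.15 (adjusted p = 0.0165). The kinase gene Jak2 rose by 0.97 ± 0.14 (adjusted p = 0.0419). Stat6, the factor of interleukin-4 signalling, had 0.09 ± 0.14 (adjusted p = 0.683). Among the SOCS and PIAS inhibitors of the same pathway 4 of 12 passed as higher and 0 as lower (6 and 1 unadjusted), with a median of 0.33. Cish, an inhibitor gene whose control signals were both below the background criterion, was at least 190-fold higher, a bound taken from the lowest signal among probes above background, or the probe's own where higher. It was tested only because its AEPS arrays were above background, so it had to differ, and the count of 4 includes it. Socs3 rose by 4.39 ± 0.22 and Socs1 by 1.90 ± 0.15, both feedback inhibitors of JAK kinases, while the adaptor gene Sh2b3 had -0.51 ± 0.15 (adjusted p = 0.110, blocked 0.0403).

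Of 17 genes tested whose proteins are known PIM substrates or effectors, 1 was higher and 1 lower, with a median of -0.19. Of all features 4.17% passed as higher and 2.94% as lower. The replicate block gave 2 higher and 6 lower, where 13% and 16.8% of all features passed. The authors' values gave 2 higher and 7 lower, where 17% and 16.4% of all features passed. Myc, a growth-promoting transcription factor, had levels of 13.3 and 14.4 with AEPS, against 1.84 and 1.97 in control, and rose by 2.86 ± 0.14 (adjusted p = 0.0104). Foxo3, a transcription factor that opposes growth and survival signals, had 0.325 and 0.306 with AEPS, against 0.765 and 0.739 in control, and fell by 1.25 on the log2 scale (SE 0.13, adjusted p = 0.0291). The groups of arrays did not overlap for these 2 genes, nor for 63.2% of all features. Both genes were picked as changes past the test, so this adds no support. Eif4ebp1, a repressor of translation initiation, had -0.19 ± 0.18 (adjusted p = 0.4995).

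Of 17 other tyrosine phosphatases tested, 4 passed as higher and 1 as lower, with a median of 0.16, and the block gave 5 higher and 3 lower. The shares of all features were 4.17% higher and 2.94% lower, and 13% and 16.8% with the block. Ptpre, a phosphatase with membrane and cytosolic forms, had levels of 2.29 and 2.33 with AEPS, against 0.674 and 0.682 in control, and rose by 1.77 ± 0.13 (adjusted p = 0.0204). Ptprj, the gene of the receptor phosphatase CD148, rose by 1.54 ± 0.14 (adjusted p = 0.0239). The receptor phosphatase gene Ptpro had levels of 1.26 and 1.51 with AEPS, against 3.83 and 4.33 in control, and fell by 1.56 on the log2 scale (SE 0.17, adjusted p = 0.0297). Arrays of the 2 groups did not overlap for Ptpre or Ptpro, nor for 63.2% of all features. Both genes were picked as large changes past the test, so this adds no support. Ptpn18, the brightest gene of the list that did not pass, had -0.64 ± 0.15 (adjusted p = 0.0800, blocked 0.0356). It turned to 0.02 with spike-in scaling.

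Among 18 tested phosphoinositide phosphatases 0 passed as higher and 1 as lower by limma (4 and 2 at an unadjusted p under 0.05, blocked 3 and 2), with a median of 0.00 to 2 decimals. The matching shares of all features were 4.17% and 2.94%, unadjusted 14.4% and 18.2%, and blocked 13% and 16.8%. Inpp5f was the one that fell, by 0.89 on the log2 scale (SE 0.13, adjusted p = 0.0443), but it did not pass in the authors' table (-0.76, adjusted p = 0.0683). Its probe was dim, at 0.1055 and 0.1098 with AEPS, against 0.1944 and 0.2033 in control. Inppl1, which encodes SHIP-2, the close relative of the Inpp5d product, had -0.02 ± 0.15 (adjusted p = 0.940).

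The receptors and adaptors that dock SHP-1, SHP-2 or SHIP-1 included both directions, with 1 of 19 tested higher and 3 lower, a median of -0.17, and 2 and 7 under the block. Of all features 4.17% passed as higher and 2.94% as lower, and 13% and 16.8% under the block. Lilrb4a, an inhibitory receptor, had levels of 51.9 and 60.2 with AEPS, against 13.8 and 15.4 in control, and rose by 1.94 ± 0.16 (adjusted p = 0.0224). Sirpa, the receptor for the self-marker CD47, had levels of 13.5 and 15.04 with AEPS, against 34.8 and 36.1 in control, and fell by 1.32 on the log2 scale (SE 0.14, adjusted p = 0.0293). The adaptor gene Dok3 fell by 1.36 (SE 0.16, adjusted p = 0.0330). The AEPS and control arrays of these 3 genes did not overlap, nor did those of 63.2% of all features. The genes were picked as large changes past the test, so this adds no support. Cd72, an inhibitory receptor, had -0.59 ± 0.16 (adjusted p = 0.101, blocked 0.0387). With spike-in scaling Foxo3, Ptpro, Inpp5f, Sirpa and Dok3 were at -0.59, -0.91, -0.23, -0.66 and -0.71. Eif4ebp1, Inppl1, Cd72 and Sh2b3 were at 0.47, 0.64, 0.07 and 0.15. That scaling moved all these genes up by the same amount, so the size of each fall alone decided its sign. Only 1 list gene passed as lower on that scale, where 0.737% of all features did. Over all 6 lists together 12 genes passed as higher and 6 as lower.

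**Figure D4:**
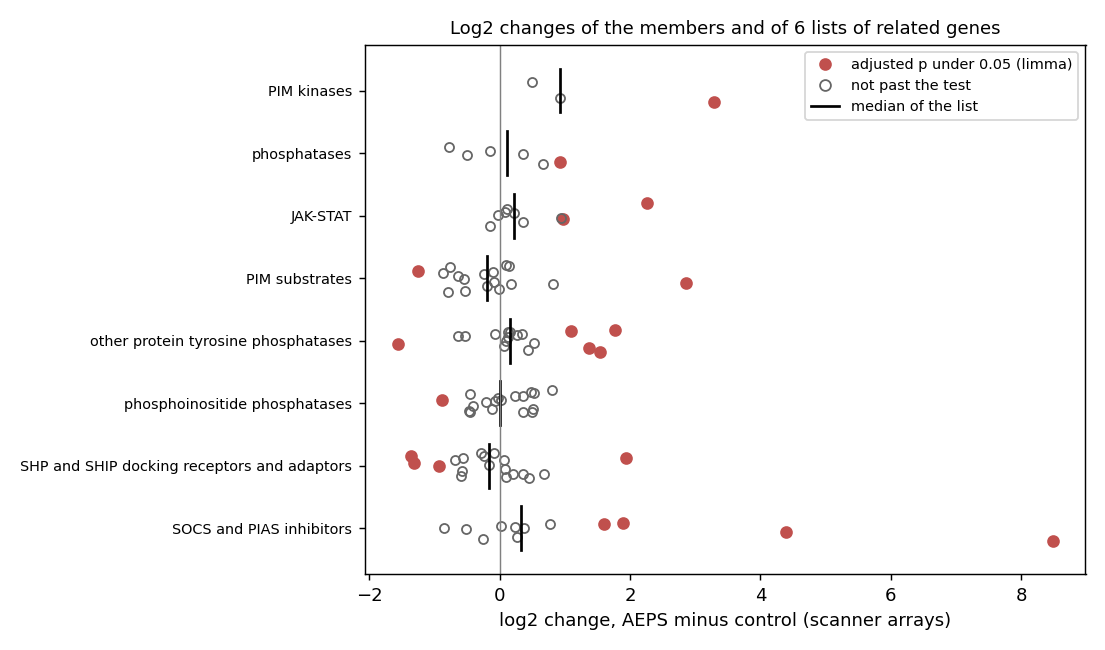
Log2 change, AEPS minus control, of each tested gene on the scanner arrays, by list; filled points passed an adjusted p of 0.05 by limma, open points did not, and vertical lines are list medians. The point at the far right is Cish, whose fitted value rests on control signals below background; the medians run from -0.19 for PIM substrates to 0.93 for PIM kinases.

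Genes that varied most like Pim1 across the 6 columns of the authors' table were sought among 15060 other tested named genes, by the Euclidean distance of log2 values centred on each gene's mean. The nearest were Pde4b, a cyclic AMP phosphodiesterase gene, at a distance of 0.14, Phlda1 at 0.14 and Olr1, the gene of an oxidised lipoprotein receptor, at 0.17. Their log2 changes in the table were 3.33, 3.30 and 3.22, close to the 3.27 of Pim1. For Ptpn6 the nearest were Bod1, Comtd1 and Retsat, at distances of 0.054, 0.054 and 0.058, with log2 changes of -0.41, -0.44 and -0.45. Likeness over 6 columns in 2 groups mostly measures a like size of change.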

How the data were processed

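Per the file headers, the deposited scanner files came from Agilent Feature Extraction 10.7.1.1 and give spot intensity values: a processed signal, background-subtracted and detrended within the array, the mean signal and the local background, with no normalization between arrays. The authors' deposited value table holds values near log2 of the signal, and its columns share 1 distribution (median 4.72 over non-control probes), as quantile normalization gives; its offset and centring steps are not given in the sources used here.

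Control spots were left out, spots called outliers by the scanner software were set to missing, and repeated spots averaged. Each array's 75th percentile was subtracted after taking log2 of its processed signals. A probe entered the test if all arrays of 1 group or both called it well above background (30381 probes). Names came from RefSeq accessions (assembly GRCm38.p6, 26582 probes) or the array annotation (4818), with 24281 unnamed. A gene was represented by its brightest tested probe. Groups were compared with limma 3.58.1 in R 4.3.3 (lmFit, eBayes), with Benjamini-Hochberg adjustment over 25930 features. The same fit was also run on simulated data with independent noise on each array. No slide effect was simulated, so that run does not cover deviations shared by arrays on a slide. Genes were named as follows: all 9 members, per list the 3 largest changes past the test and the brightest gene that did not pass, and the 3 genes nearest to Pim1 and Ptpn6. Members and lists were chosen with earlier results of these data known, so list counts are descriptions.

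Same-numbered table columns deviated together from their group means (r = 0.58, 0.39 and 0.41; other pairs -0.50 to 0.24), as did arrays sharing a slide (0.62). The slide, also the scan batch, therefore served as the replicate block for the scanner arrays, and the replicate number did for the authors' table. These blocked fits were alternatives to the fits without covariates. Other alternatives were normexp correction, quantile and spike-in scaling, the value table, other probe filters and rules, and leaving out each array or column.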

Additional observations from a re-analysis of the deposited data

How the results depend on the processing

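On the scanner arrays 1 PIM kinase and 1 phosphatase passed as higher and 0 phosphatases as lower. Of the list genes 12 passed as higher and 6 as lower (4.17% and 2.94% of all features). The counts below are in this order. Normexp correction gave 2, 2 and 1, with 11 list genes lower (7.33% of all features higher, 10.4% lower), and moved the difference of the class medians to 0.50. Quantile normalization gave 2 phosphatases higher, 1 lower and 10 list genes lower (6.59% and 5.55% of features). Spike-in scaling gave 3 PIM kinases and 3 phosphatases higher, with 35 list genes higher and 1 lower; 22.7% of features were higher and 0.737% lower, and the median of all features moved to 0.47. The replicate block gave 3, 2 and 2, with 20 and 19 (13% and 16.8% of features). The authors' table gave 3, 3 and 2, with 26 and 19 (17% and 16.4%). With the replicate block the table gave 3, 3 and 3, with 33 and 26 (23.5% and 26.3%). Requiring signal above background on every array (5.38% and 4.13% of features), or testing every probe on its own (5.4% and 3.82%), gave 2 PIM kinases higher and 1 phosphatase lower. With no filter on dim probes 0 passed in each count, where 0 of 48089 features passed in either direction. More features were tested in that fit, and the SE of Pim1 was 0.19 against 0.15 with the filter. No PIM kinase passed as lower in any of these fits.

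Leaving out 1 array or 1 table column gave a class difference of 0.74 to 1.04. Without 1 table column 2 to 3 PIM kinases and 2 to 3 phosphatases passed as higher and 2 phosphatases as lower. In those fits 19 to 26 list genes were higher and 15 to 18 lower. Shares of all features were not computed for the leave-out fits, so these counts cannot be set against them. In the full table fit the shares were 17% higher and 16.4% lower. Fits without 1 scanner array leave 1 array in a group, which is assumed to vary like the others, so their counts are not given. On the scanner arrays the calls of Pim1 and Ptprc depended on single arrays, as given above. In these leave-out fits no member changed sign. In the others the sign of Ptpn6 turned with spike-in scaling (0.16), and that of Ptpn1 with spike-in scaling (0.51) and with the mean of its probes (0.11). Over 20 alternatives Pim1 passed in 17 (log2 change 2.92 to 3.94, adjusted p = 7.14e-05 to 0.0717), Ptprc in 15 (adjusted p = 0.00238 to 0.236) and Ptpn1 in 1. For the other probes of Ptpn1 and Ptpn2, fits with the authors' table and with the replicate block were chosen after seeing the data: both Ptpn2 probes passed in both, with adjusted p of 0.000780 to 0.0362, and the Ptpn1 probe in neither.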
